A study of Rattus norvegicus with 241 samples.

Results

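Luminal epithelial cells sorted from the normal (non-tumor) mammary tissue of SD rats given a carcinogen were compared between 3 tumor-free rats that had received TGFBRi and 3 tumor-bearing rats that had received vehicle. These are 6 of the 241 samples of the series, picked out by their labels for cell type, treatment, day and tumor status. TGFBRi is LY2157299, which blocks the kinase of the type I TGFβ receptor, and rats received it by gavage at 75 mg/kg with 2 daily doses over 10 days, starting at an age of 21 days. All 6 rats were virgin females of the outbred SD strain and then received 1 intraperitoneal injection of 50 mg/kg of the carcinogen N-nitroso-N-methylurea (NMU), and tissue was taken 87 days later. The vehicle rats carried tumors and the compared TGFBRi rats did not, so that drug and tumor status cannot be told apart in this comparison. The other TGFBRi group, 3 rats that did bear tumors, was fitted with them, and basal cells of the same 9 rats and luminal cells of 8 uninjected SD rats at day 0 (right after the last dose) served for tests of differences between effects. The sort took luminal cells as CD24+ CD29-low, CD31- and CD45- cells, from 1 rat per library.

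Luminal cells line the mammary ducts and make milk. They include hormone-sensing cells, marked by the estrogen and progesterone receptors and secreting paracrine factors such as amphiregulin, and progenitor-rich cells marked by Kit, Elf5 and Aldh1a3. TGFβ restrains proliferation of mammary epithelium through type I and type II receptor kinases that phosphorylate SMAD proteins, and it drives matrix genes in stroma. Cytokines of the IL-6 family act through the gp130 receptor and JAK kinases on STAT proteins, with SOCS proteins as feedback inhibitors.

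The libraries of vehicle rats 1 and 2 stood apart from the other luminal libraries in their share of ribosomal protein reads. Cytosolic ribosomal protein genes took 21.9% of reads on genes in vehicle rat 1, 13.9% in vehicle rat 2 and 5.23% in vehicle rat 3, against 4.39, 4.45 and 3.85% in tumor-free rats 1 to 3. In the basal and CD45+ libraries of the same vehicle rats the share lay between 2.80 and 5.72%. In luminal libraries of the day 0 rats it reached 10.3%. Vehicle rat 1 also had the fewest reads on genes, 6952044, against 14808084 and 21445893 in vehicle rats 2 and 3 and 20003972 to 21173594 in the tumor-free rats. Across genes, vehicle rat 3 correlated with the 3 tumor-free rats at a Pearson r of 0.929 to 0.958, vehicle rat 2 at 0.888 to 0.894 and vehicle rat 1 at 0.841 to 0.847. By this measure vehicle rat 2 did not stand apart, as tumor-bearing TGFBRi rats 1 and 2 correlated with each other at 0.885. The part of RNA quality or library preparation of the luminal libraries of vehicle rats 1 and 2 in the differences from vehicle was not tested. Differences are therefore given against all 3 vehicle rats and, for the called genes described below and most lists, also against vehicle rat 3 alone, whose spread was assumed to be that of the other groups. Vehicle rat 3 was picked after these values were seen, and it lay nearest the tumor-free rats. Smaller differences from it are thus in part set by that choice.

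**Figure D1:**
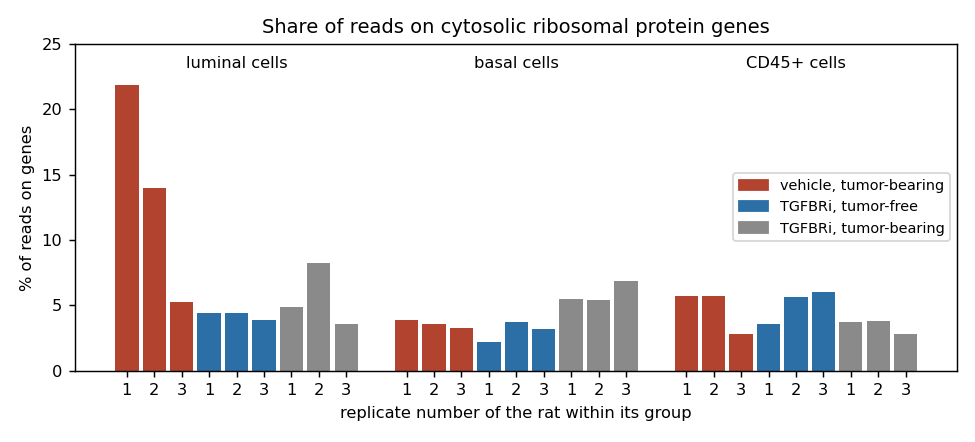
Share of reads on genes that fell on cytosolic ribosomal protein genes (%), 1 bar per library, in luminal, basal and CD45+ cells of the same 9 rats, colored by group. The bars of vehicle rats 1 and 2 in luminal cells, 21.9 and 13.9%, stand above all others, and the next highest is 8.22%.

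Luminal markers were high and basal markers low in these libraries. The summed level of 9 luminal epithelial genes (Krt8, Krt18, Epcam and others) was 17031 to 51389 RPM (reads on a gene scaled to equal library totals) in the vehicle libraries and 43927 to 53497 in the tumor-free libraries, against 6653 to 8836 in the basal libraries of these 6 rats. Basal epithelial genes such as Krt14 and Acta2 summed to 694 to 1484 RPM in the luminal libraries, against 26638 to 39907 in the basal ones. Pan-leukocyte genes summed to 21.5 to 65.9 RPM, against 2381 to 4989 in the CD45+ libraries. Markers of other cell types ran in either direction. On the RPM scale of these sums the median log2 difference over 10080 genes was 0.25 toward the tumor-free rats. On the normalized counts used in the tests it was -0.32 over 14128 genes. Adipocyte genes summed to 885 to 3232 RPM in the vehicle and 304 to 1296 in the tumor-free libraries, neutrophil genes to 11.4 to 78.1 and 6.72 to 9.85, and erythroid genes to 1.399 to 23.7 and 0.150 to 3.19. Endothelial genes summed to 60.1 to 222 RPM in the vehicle and 116 to 357 in the tumor-free libraries, and the sums of fibroblast and pericyte genes, given below, had higher middle values in the tumor-free libraries. The adipocyte and erythroid ranges overlapped between the groups and the neutrophil ranges did not. The part of these cells in the differences was not tested. In such bulk samples fewer cells of a type and less RNA per cell cannot be told apart.

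Sequences at the annotated start sites of 4 genes that the results turn on are shown first, because ribosomal protein transcripts typically begin with a terminal oligopyrimidine (TOP) tract and had one of the lowest medians of all lists in the comparison. Each runs from 10 bases before to 20 bases from the start, 5′ to 3′ on the gene's strand, from RefSeq (GRCr8), and capitals mark any of the letter runs CTTTC or CTTTT or CTTCC or CTCTT, searched on the gene's strand.
RPLP1 (chr8:71290853-71290882, minus strand): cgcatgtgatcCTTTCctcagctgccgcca
RPL17 (chr18:70856266-70856295, plus strand): ttcgcgCTTCCTCTTCCtgttagcggccag
CYCS (chr4:80984748-80984777, minus strand): ccggcgtgtccttgggctagagagcgggac
C4A (chr20:4010347-4010376, plus strand): agggagcagactgtcagactagacgggctg
The windows of RPS27, RPL41, SOCS3 and ERBB2 were searched too and are not shown. RPS27 and ERBB2 held such a run, and RPL41 and SOCS3 held none. One of these letter runs lay in this window in 42 of 61 ribosomal protein genes with a RefSeq promoter (68.9%) and in 13.9% of all 33469 promoters. It was present in 4 of 95 matched genes that rose in the comparison below (4.21%), in 3 of 11 that fell (27.3%) and in 11 of 49 respiratory chain genes (22.4%). On either strand of the 300-base promoter, the AP-1 letters TGAGTCA were in 3.16% of these 95 genes against 4.63% of all promoters, the CRE letters TGACGTCA in 2.11% against 1.83%, and the E-box CACGTG in 9.47% against 6.42%. The SMAD palindrome GTCTAGAC was in 0 of 95 and in 0.197% of all. These matches are descriptions of letters and not of binding.

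Of 14128 genes tested by limma on log2 of the normalized read count plus 1, 134 passed a Benjamini-Hochberg adjusted p of 0.05. Expression rose in tumor-free TGFBRi rats for 122 genes (0.864% of those tested) and fell for 12 (0.0849%). The genes that rose had log2 differences of 1.61 to 4.61 with a median of 2.06, and the median over all genes tested was -0.32. Counts of calls rested on single rats. Leaving out vehicle rat 1, vehicle rat 2, tumor-free rat 1 or tumor-free rat 3 left 0 calls, leaving out tumor-free rat 2 left 3, and leaving out vehicle rat 3 gave 2017, 838 raised and 1179 lowered. Against vehicle rat 3 alone limma called 0 genes, with 454 at an unadjusted p below 0.05. The balance of directions depended on the tool and on vehicle rat 3. DESeq2 on the recovered reads raised 502 and lowered 858 (3.66 and 6.26% of 13714 genes) and edgeR raised 211 and lowered 284, so that raised genes made up 91% of limma, 36.9% of DESeq2 and 42.6% of edgeR calls, and 41.5% of limma calls without vehicle rat 3. DESeq2 called all 134 limma genes and edgeR 130 of them, in the same direction.

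None of the 134 called genes overlapped between the groups, as was so for 3142 of all genes (22.2%), and this fixes for each that vehicle rat 3 lay outside the tumor-free range and the sign of the difference from it. The size of the difference from vehicle rat 3 alone was a log2 of 1 or more for 122 of them. For the raised genes the median was 1.44 against vehicle rat 3 alone and for the lowered genes -1.20, where against the whole group these were 2.06 and -2.31.

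Complement component 4 had the smallest adjusted p. C4A, which feeds the classical and lectin complement pathways, had 1373, 1666 and 5973 normalized reads in vehicle rats 1 to 3 and 20426, 25690 and 29778 in tumor-free rats 1 to 3. The groups were well separated, with vehicle rat 3 the highest of its group. C4A rose by 3.39 ± 0.50 on the log2 scale (SE, n = 3 and 3, limma adjusted p = 0.00787), and by 2.07 against vehicle rat 3 alone. Its close copy C4B went from 1057, 1195 and 5462 to 19474, 26388 and 30637 normalized reads, a log2 difference of 3.72 ± 0.54 (limma adjusted p = 0.00787) and of 2.20 against vehicle rat 3 alone. The genes are nearly identical in sequence and lie near each other, so that reads could be split between them and they are not independent. In tumor-bearing TGFBRi rats C4A had 17026, 11193 and 14769 normalized reads, also above all vehicle rats (limma adjusted p = 0.0370 against vehicle).

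Other genes with large increases encode enzymes and regulators. ACE, the angiotensin-converting enzyme, had 164, 198 and 852 normalized reads after vehicle and 2660, 2234 and 3277 in tumor-free rats (log2 difference 3.15 ± 0.56, limma adjusted p = 0.0222). SARDH, a mitochondrial enzyme of sarcosine breakdown, rose from 32.02, 17.3 and 144 to 507, 358 and 475 (log2 difference 3.32 ± 0.63). For both genes vehicle rat 3 was several-fold above vehicle rats 1 and 2, and the log2 differences from it alone were 1.66 and 1.61. EPAS1, which encodes the hypoxia-inducible factor HIF-2α, had 100, 125 and 545 normalized reads after vehicle and 1045, 1763 and 1209 in tumor-free rats (2.77 ± 0.60), and 1.26 against vehicle rat 3 alone. ZFP516, a zinc finger protein, PITPNM1, a phosphatidylinositol transfer protein, PCDHGC3, a γ-protocadherin, and BRPF3, a reader subunit of a histone acetyltransferase complex, rose by log2 values of 2.99, 2.81, 2.68 and 2.64. Their differences from vehicle rat 3 alone were 2.64, 1.75, 1.93 and 1.79.

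**Figure D2:**
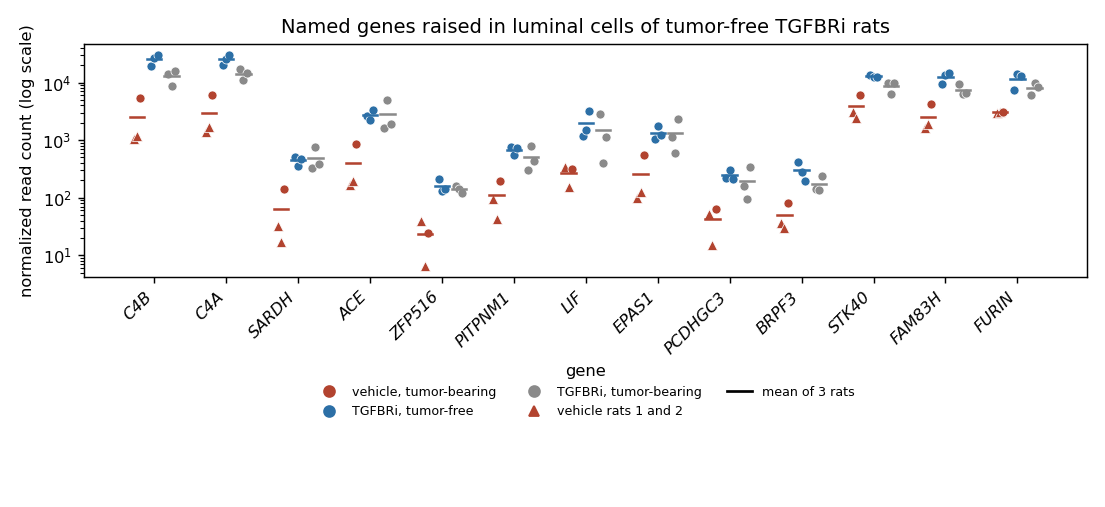
Normalized read counts (log axis) of the 13 named genes that rose in luminal cells of tumor-free TGFBRi rats, 1 point per rat, with bars at group means and triangles for vehicle rats 1 and 2. For each gene the 3 tumor-free rats lie above the 3 vehicle rats, and for C4A vehicle rat 3 lies at 5973 against 1373 and 1666 for the others.

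STK40, FAM83H and FURIN were among the 5 called genes with the highest normalized reads that rose. FURIN, the proprotein convertase that also cleaves the TGFβ1 precursor, had 2954, 3074 and 3118 normalized reads in vehicle rats and 7281, 13922 and 12941 in tumor-free rats. The 3 vehicle rats nearly coincided, so that the log2 difference was 1.84 ± 0.42 against all of them (limma adjusted p = 0.0417) and 1.81 against vehicle rat 3 alone. FAM83H, a protein that organizes keratin filaments, rose from 1601, 1875 and 4183 to 9470, 13310 and 14488 (2.39 ± 0.45), and STK40, a kinase-like protein, from 3070, 2393 and 6115 to 13766, 12715 and 12567 (1.87 ± 0.44). For these the differences from vehicle rat 3 alone were 1.55 and 1.09.

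For 7 of the 134 called genes the difference from vehicle rat 3 alone was at least as large as that from all vehicle rats. They were chosen after their values were seen and are NOTCH3, LAMB2, SDC3, HIP1R, FOXJ2, CLIP2 and RPS6KA4. SDC3, a heparan sulfate proteoglycan, had 873, 561 and 652 normalized reads after vehicle and 2623, 2652 and 3021 in tumor-free rats (log2 difference 2.01 ± 0.39, limma adjusted p = 0.0222, 2.08 against vehicle rat 3). HIP1R, a protein of clathrin-coated vesicles, had 733, 557 and 479 against 4155, 2060 and 1399, and its difference was 1.98 ± 0.46 and 2.25. Both traits come with the choice. Groups without overlap are shared by all 134 called genes, and the 7 were picked by their difference without vehicle rats 1 and 2.

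Of 21 genes of the IL-6 family and JAK-STAT pathway, 4 rose (LIF, SOCS3, JAK3 and STAT6), 0 fell and 17 did not pass the test, where 0.864% of all genes rose and 0.0849% fell. The median log2 difference of the list was 0.96, against -0.32 over all genes, and it was 0.16 against vehicle rat 3 alone, where the median of all genes was 0. LIF, a cytokine of the IL-6 family, had 348, 151 and 321 normalized reads after vehicle and 1188, 1492 and 3236 in tumor-free rats (2.80 ± 0.62, limma adjusted p = 0.0472). SOCS3, the STAT3-induced inhibitor of gp130 signaling, went from 612, 893 and 1125 to 4913, 3494 and 3467 (2.20 ± 0.42, limma adjusted p = 0.0222). All tumor-free values of both genes exceeded all vehicle values. STAT6, the transcription factor downstream of IL-4 and IL-13, rose from 476, 261 and 691 to 3536, 2061 and 1741 (2.40 ± 0.45), and the kinase gene JAK3 from 76.1, 105.7 and 275 to 635, 791 and 697 (2.43 ± 0.47). Their differences from vehicle rat 3 alone were 2.48 for LIF, 1.79 for SOCS3, 1.75 for STAT6 and 1.36 for JAK3. STAT3 itself had 5988, 3940 and 9352 against 12106, 11635 and 13090 normalized reads, without overlap, and did not pass the test (1.02 ± 0.44, limma adjusted p = 0.217). The gp130 gene IL6ST had 3455, 1914 and 2757 against 1533, 3500 and 3142, with overlapping groups.

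The EGF family receptors ERBB2 and ERBB3 rose. ERBB2, the co-receptor of the family, had 180, 64.7 and 201 normalized reads after vehicle and 824, 513 and 483 in tumor-free rats (2.14 ± 0.49, limma adjusted p = 0.0417). ERBB3, a neuregulin receptor, went from 432, 190 and 460 to 1510, 1783 and 1292 (2.17 ± 0.48, limma adjusted p = 0.0403). Both were higher in all 3 tumor-free rats than in any vehicle rat, by 1.54 and 1.72 on the log2 scale against vehicle rat 3 alone. Of the 14 measured genes of the list limma raised 2 and lowered 0 (0.864 and 0.0849% of all genes), and DESeq2 raised 2 and lowered 2 (3.66 and 6.26%). Without overlap 2 were higher and 4 lower (11.2 and 11% of all genes). The median was -0.35 against -0.32 over all genes, and -0.41 against vehicle rat 3 alone, where that of all genes was 0. The ligand gene AREG (amphiregulin), made by hormone-sensing luminal cells, had 9191, 6289 and 4410 normalized reads after vehicle and 1269, 2355 and 1535 in tumor-free rats. Its values did not overlap between the groups, but the difference of -1.93 ± 0.48 missed the threshold (limma adjusted p = 0.0543) and was -1.41 against vehicle rat 3 alone. The ligand HBEGF had 21336, 18576 and 19417 against 12692, 15265 and 16539 normalized reads, also without overlap (-0.42, limma adjusted p = 0.605).

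Lineage genes of luminal cells moved in part. Of 10 luminal progenitor genes 2 rose and 0 fell (0.864 and 0.0849% of all genes). Their median was -0.25 against all vehicle rats, 0.30 against vehicle rat 3 alone and 0.19 under RPM scaling. The medians of all genes were -0.32, 0 and 0.25 in the same order. KIT, a receptor of progenitor-rich luminal cells, had 168, 198 and 603 normalized reads after vehicle and 1236, 1474 and 1965 in tumor-free rats (2.49 ± 0.53, limma adjusted p = 0.0350). SOX10, a transcription factor linked to a stem-like state, rose from 1213, 1402 and 2040 to 7403, 4932 and 4858 (1.89 ± 0.41, limma adjusted p = 0.0350). Against vehicle rat 3 alone these were 1.34 and 1.46. The other progenitor genes did not pass, among them LCN2 with 74871, 208407 and 76328 against 66307, 76668 and 99015, and ELF5 with 801, 567 and 272 against 375, 364 and 464. Of 11 mature luminal genes 0 passed limma and DESeq2 lowered 1, 8 were lower (8625 of 14128 over all genes) and the median was -0.87, or -0.62 against vehicle rat 3 alone. Of 9 general luminal genes 0 passed limma or DESeq2, with a median of 0.42 (0.20 against vehicle rat 3), and of 20 milk genes 0 passed either, with a median of 0.56 (-0.02 against vehicle rat 3). The milk protein gene LALBA had 400692, 581870 and 164582 normalized reads after vehicle and 304158, 136704 and 333798 in tumor-free rats, so that the groups overlapped.

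**Figure D3:**
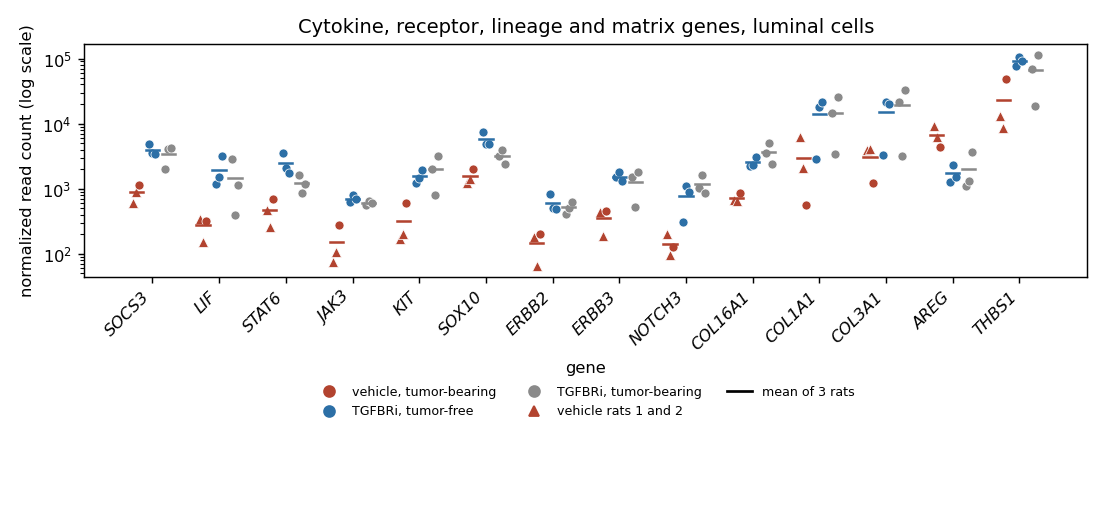
Normalized read counts (log axis) of 14 genes of the JAK-STAT, receptor, lineage, matrix and TGFβ target lists, 1 point per rat, with bars at group means and triangles for vehicle rats 1 and 2. SOCS3, LIF, KIT, ERBB2 and COL16A1 are higher in each tumor-free rat than in each vehicle rat, whereas COL1A1 and COL3A1 overlap and AREG runs the other way.

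In the Notch, Wnt and adhesion lists single receptors and matrix genes rose. NOTCH3, a Notch receptor of luminal progenitors and pericytes, had 204, 97.1 and 125 normalized reads after vehicle and 313, 1088 and 893 in tumor-free rats (2.30 ± 0.50, limma adjusted p = 0.0350, 2.41 against vehicle rat 3). It was 1 of 16 Notch pathway genes to rise, and 1 of 5 pericyte genes, where 0.864% of all genes rose. The Notch median was -0.13 (0.32 against vehicle rat 3 alone), against -0.32 over all genes. The pericyte list had a median of 1.34 (0.31 against vehicle rat 3 alone), with 4 of 5 higher (5503 of 14128 over all genes). It summed to 37.1 to 143 RPM in the vehicle and 132 to 324 RPM in the tumor-free libraries. Its part in the NOTCH3 values was not tested. PDGFRB, a pericyte receptor, had 204, 47.5 and 50.99 against 373, 330 and 166 normalized reads. LRP5, a Wnt co-receptor, had 216, 147 and 245 against 527, 1078 and 1557 normalized reads (2.27 ± 0.46, 1.96 against vehicle rat 3). It was 1 of 26 Wnt pathway genes to rise (0.864% of all genes), and the list median was 0.15 (-0.04 against vehicle rat 3). The fibronectin receptor chain ITGA5 went from 220, 162 and 337 to 937, 1558 and 897 (2.25 ± 0.47, 1.70 against vehicle rat 3), and the laminin chain LAMB2 from 1637, 1282 and 1440 to 4143, 5313 and 5002 (1.73 ± 0.41, also 1.73 against vehicle rat 3). These were the 2 of 16 integrin and laminin genes to pass, where 0.864% of all genes rose. FGFR1 and FGFR3, receptors for fibroblast growth factors and in none of the lists, rose by 2.24 and 2.59, and differed by 1.86 and 1.44 from vehicle rat 3 alone.

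Collagen genes were mostly higher, 9 of 12 against 5503 of 14128 over all genes. Limma raised 1 of 12 (0.864% of all genes) and DESeq2 raised 4 (3.66%). COL16A1 had 668, 658 and 854 normalized reads after vehicle and 2242, 2318 and 3085 in tumor-free rats (1.80 ± 0.40, limma adjusted p = 0.0403, 1.56 against vehicle rat 3 alone). The median of the list was 1.59 against all vehicle rats and 1.79 against vehicle rat 3 alone. In the latter 12 of 12 were higher, as were 6540 of the 13195 genes in that fit. The fibrillar collagen COL1A1 had 6185, 2054 and 560 normalized reads after vehicle and 2822, 17756 and 21672 in tumor-free rats, with overlapping groups (limma adjusted p = 0.315). COL3A1 had 3911, 4063 and 1245 against 3346, 21552 and 19913. Marker genes of fibroblasts summed to 331 to 758 RPM in the vehicle libraries and 518 to 2681 in the tumor-free libraries. In CD45+ libraries of the same rats they summed to 12355 to 30188. Against all vehicle rats 6 of 9 were higher and 3 lower, with a median of 0.45. Limma raised 0 of them (0.864% of all genes) and DESeq2 raised 1 (3.66%). Against vehicle rat 3 alone 9 of 9 were higher (6540 of 13195 over all genes), with a median of 1.42. Their part in the collagen values was not tested.

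Genes of TGFβ signaling did not pass limma in either direction. Of 27 ligand, receptor and SMAD genes 0 passed limma and DESeq2 raised 1, with a median of 0.35 (0.29 against vehicle rat 3). For 19 TGFβ target genes 0 passed limma and DESeq2 raised 1, with a median of -0.25. That median was -0.18 against vehicle rat 3 and 0.23 under RPM scaling. The medians of all genes were -0.32, 0 and 0.25 in the same order. Of the target genes 6 of 19 had higher values in all tumor-free than in all vehicle rats and 0 had lower ones, against 11.2% and 11% of all genes tested. The type I receptor gene TGFBR1 had 72.1, 36.7 and 95.1 normalized reads after vehicle and 98.3, 253 and 203 in tumor-free rats (1.43 ± 0.62, limma adjusted p = 0.218). TGFBR2 had 256, 192 and 381 against 486, 727 and 701 (1.24 ± 0.49). THBS1, an activator and target of TGFβ, had 13042, 8500 and 48552 against 77496, 105867 and 92846 normalized reads (2.38 ± 0.67, limma adjusted p = 0.0889, 0.91 against vehicle rat 3). The feedback inhibitor SMAD7 had 316, 220 and 117 against 122, 91.3 and 74.1, with overlapping groups. CTGF also overlapped between the groups, with 697, 669 and 733 against 953, 765 and 256 normalized reads.

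The 12 genes that fell included 2 ribosomal protein genes. RPLP1, a protein of the ribosomal stalk, had 153053, 99098 and 29581 normalized reads after vehicle and 16000, 12259 and 13844 in tumor-free rats (-2.46 ± 0.55, limma adjusted p = 0.0403). RPL17 had 11737, 15545 and 6048 against 1548, 2006 and 2545 (-2.37 ± 0.44, limma adjusted p = 0.0222). For both genes vehicle rat 3 was the lowest of its group but above each tumor-free rat, and the differences from it alone were -1.08 and -1.60. Ribosomal protein genes have many processed copies in the genome, so that their counts are uncertain.

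The other named genes that fell have varied roles. SEC62, of the endoplasmic reticulum translocon, had 6213, 3057 and 1035 normalized reads after vehicle and 590, 686 and 677 in tumor-free rats (-2.05 ± 0.50), and SRP19, of the signal recognition particle, 2706, 3877 and 1049 against 610, 604 and 585 (-1.89 ± 0.45). CYCS, cytochrome c, fell from 5952, 5090 and 1621 to 1071, 880 and 850 (-1.98 ± 0.45). In each of the 3 genes vehicle rat 3 lay far below the other vehicle rats, and the differences from it alone were -0.67, -0.81 and -0.80. BET1, a vesicle fusion protein, IFT20, of intraflagellar transport, and TXNDC17, a thioredoxin-like protein, fell by 2.25, 2.11 and 1.84, and their differences from vehicle rat 3 alone were -0.76, -1.19 and -1.22. RAD50, of the MRN complex that senses DNA breaks, had 576, 324 and 124 normalized reads after vehicle and 45.6, 42.2 and 37.1 in tumor-free rats (-2.75 ± 0.63, limma adjusted p = 0.0417, -1.56 against vehicle rat 3). SSPN, of the dystrophin complex, had 516, 354 and 125 against 26.3, 43.1 and 65.1 (-2.73 ± 0.63, -1.55 against vehicle rat 3).

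**Figure D4:**
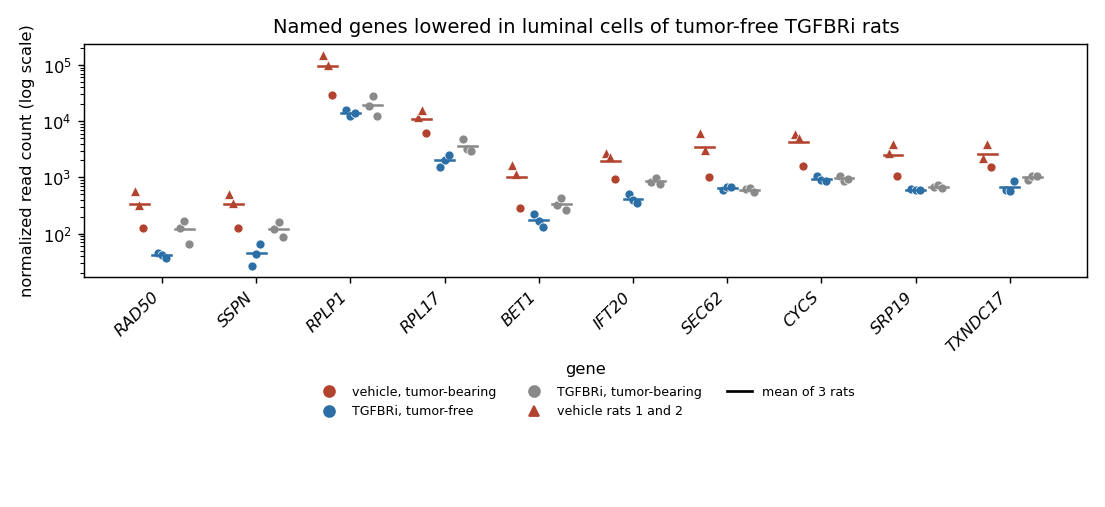
Normalized read counts (log axis) of the 10 named genes that fell in luminal cells of tumor-free TGFBRi rats, 1 point per rat, with bars at group means and triangles for vehicle rats 1 and 2. Vehicle rats 1 and 2 lie highest for each gene, with 153053 and 99098 for RPLP1, and vehicle rat 3 lies between them and the tumor-free rats.

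The wider ribosomal and mitochondrial lists had low medians against all vehicle rats. Their medians were smaller in size against vehicle rat 3 alone, the rat with the lowest luminal ribosomal share of its group. All 77 measured ribosomal protein genes had lower means on the log2 scale in tumor-free rats, 2 passed limma and 65 DESeq2, and the median difference was -1.94. Against vehicle rat 3 alone the median was -0.22 and 7 of 77 were higher (6540 of 13195 over all genes). Over all genes tested 8625 of 14128 had lower means, limma lowered 0.0849% and DESeq2 6.26%. RPS27 had 704801, 248655 and 36318 normalized reads after vehicle and 38075, 26636 and 29163 in tumor-free rats, so that vehicle rat 3 lay within the tumor-free range, whereas 46 of the 77 genes were lower in each tumor-free rat than in each vehicle rat (11% of all genes). For 73 respiratory chain genes the median was -1.56 and 0 passed limma (45 DESeq2), and against vehicle rat 3 it was -0.08. COX6A1 had 262574, 140103 and 20199 against 29695, 21261 and 21352. Of 70 mitochondrial ribosomal genes and 19 Sm and LSm spliceosome genes 0 passed limma (26 and 12 were lowered by DESeq2), with medians of -1.11 and -1.76 that became -0.08 and -0.09. For 41 genes of the G2/M phase 0 passed limma and DESeq2 lowered 2, and the median of -1.14 became 0.25.

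**Figure D5:**
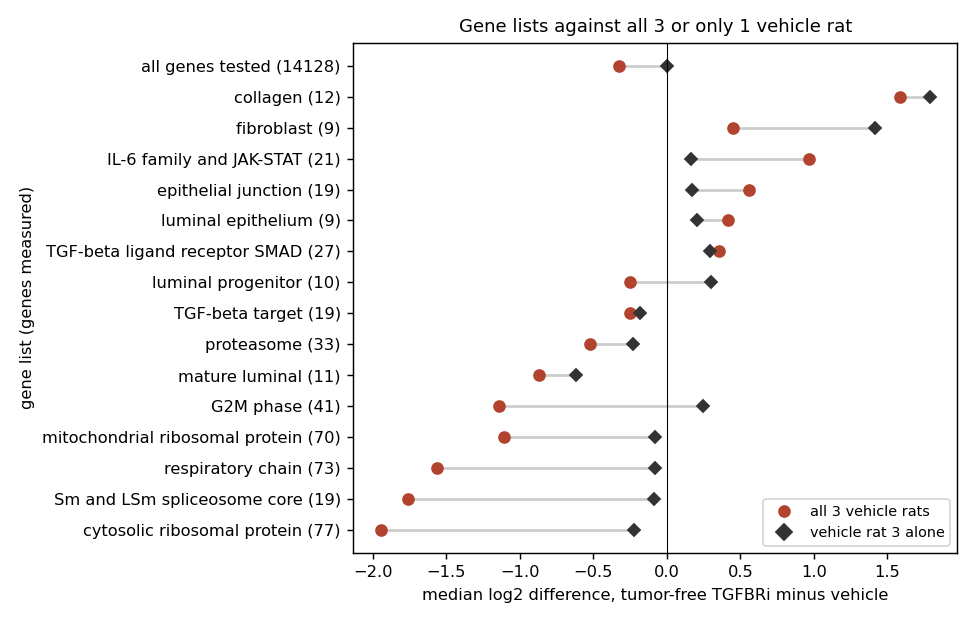
Median log2 difference between tumor-free TGFBRi and vehicle rats for 15 gene lists and all genes tested, against all 3 vehicle rats (circles) and against vehicle rat 3 alone (diamonds). The ribosomal protein median moves from -1.94 to -0.22, while the collagen median is 1.59 and 1.79.

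The direct comparison of tumor-free with tumor-bearing TGFBRi rats, in which the drug is shared, gave 0 calls by limma (0% of 14128 genes, 872 at an unadjusted p below 0.05), 0 by edgeR and 12 by DESeq2. The comparison of tumor-bearing TGFBRi rats with vehicle, in which tumor status is shared, called 30 genes (0.212%), 26 higher and 4 lower, while edgeR raised 87 and lowered 63 and DESeq2 raised 439 and lowered 640. The 2 comparisons with vehicle share the vehicle rats, so that agreement between them is in part built in and each gene's values stand side by side. The 122 raised genes had a median difference from vehicle of 1.57 in tumor-bearing TGFBRi rats. In tumor-free rats, where they were selected, it was 2.06. KIT had 2007, 813 and 3162 normalized reads in tumor-bearing TGFBRi rats, against 1236, 1474 and 1965 in tumor-free ones. SOX10 had 3139, 3929 and 2384, each below the 3 tumor-free values, but its difference of 0.86 did not pass. LIF had 2892, 397 and 1141. Without vehicle rat 1 or 2, or tumor-bearing rat 1, the comparison of tumor-bearing rats with vehicle called 0 genes, without tumor-bearing rat 2 it called 13, and without vehicle rat 3 it called 1522.

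In basal cells of the same rats tumor-free TGFBRi against vehicle gave 0 calls among 13107 genes, with 160 at an unadjusted p below 0.05, and the median difference of the 122 genes was 0.23. The basal library of tumor-free rat 2 stood apart, with pan-leukocyte genes at 797 RPM against 36.4 and 37.1 in the other tumor-free rats and MHC class II genes at 15830 RPM against 511 and 512. The test of the difference between the luminal and the basal effect also called 0 genes (0%, smallest limma adjusted p = 0.540, 1132 unadjusted, 0 by edgeR, also 0 by limma without tumor-free rat 2), so that an effect particular to luminal cells was not shown. C4A differed by 3.39 in luminal and 0.38 in basal cells and SOCS3 by 2.20 and 0.44, whereas RPLP1 differed by -2.46 and -0.20. At day 0, in luminal cells of 4 vehicle and 4 TGFBRi rats without NMU, 0 of 14367 genes passed and the median of the 122 genes was 0.04. The test between day 87 and day 0 called 0 genes (0%, smallest limma adjusted p = 0.260, 1963 unadjusted, 0 by edgeR). It called 799 without vehicle rat 3. Rats at these times also differ in age and in NMU.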

How the data were processed

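Sorted cells were profiled by bulk RNA-seq (SMARTer low-input kit, less than 10 ng of total RNA, single-end reads of 75 bases). Per the submitters' processing notes and the methods, the authors aligned reads with STAR 2.5.1b to rn6, counted genes with HTSeq and normalized with DESeq2 1.30.1. The deposited values are signal values per gene symbol, read counts divided by a size factor per sample. Divided by a step found for each sample, all 115131 values above 0 in the 9 luminal samples came out whole within 0.001 (100%), and reads were recovered in this way. Totals were 6952044 to 21445893 reads on genes, which set the precision at low levels. Counting did not use strand, so that reads of genes overlapping on opposite strands cannot be told apart.

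The 9 rats were fitted by limma 3.58.1 (trend, robust) on log2(value + 1) over genes with a summed value of 10 or more, with 3 groups in 1 model and Benjamini-Hochberg adjustment. Fold changes on this scale understate those of low genes. The difference between cell types was tested on the luminal minus basal values of each rat, and that between days as an interaction over 17 luminal samples. edgeR 4.0.16 (quasi-likelihood, TMM) and DESeq2 1.42.0 on recovered reads, scaling, pseudocounts, filters, thinning and left-out rats were alternatives. The fits were tested on simulated data. Named genes were, per direction, the 10 with the largest change and the 5 most abundant among called genes whose groups do not overlap and whose mean reaches 50 reads, and up to 4 members per list, called ones first. Other genes named were chosen after their values were seen. The members and gene lists were chosen with earlier results of these data known. Lists are described by counts and medians without a set test. Gene length was not used here. Each rat gave 1 library per cell fraction, and R 4.3.3 was used.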

Additional observations from a re-analysis of the deposited data

How the results depend on the processing

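The 134 calls of the main comparison became 495 by edgeR (211 raised) and 1360 by DESeq2 (502 raised), 253 with only the rats of the 2 groups, 66 without a filter on low values, 422 on RPM (10080 genes tested) and 2 after quantile normalization. Leaving out 1 rat gave 0 to 2017 calls, and keeping only vehicle rat 3, an alternative added after seeing the data, gave 0. Pseudocounts, the filter of at least 10 reads in 3 samples, TMM scaling and thinning gave 98 to 172. RPM scaling moved the median of all genes from -0.32 to 0.25 and quantile normalization to 0.00, against which changes should be read. No called gene changed sign under any of these settings. For left-out rats, vehicle rat 3 alone, pseudocounts, filters and the fit of only the 2 groups, the lack of overlap between the groups fixes this in advance. Of 35 called genes that were named by rule or in a list, 2 passed after quantile normalization. The cause of the differences between tools was not tested.

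Tumor-bearing TGFBRi rats against vehicle, with 30 calls, gave 150 by edgeR, 1079 by DESeq2, 1 with only the rats of the 2 groups, 14 without a filter, 0 with at least 10 reads in 3 samples, 96 with TMM scaling, 855 on RPM, 17 after quantile normalization and 0 against vehicle rat 3 alone, and 0 to 1522 with 1 rat left out. Tumor-free against tumor-bearing TGFBRi rats gave 12 by DESeq2 and 0 to 1 with 1 rat left out. The test between day 87 and day 0 gave 0 to 799 with 1 rat left out, and that between luminal and basal cells gave 0 throughout. No paired analysis was possible because the treatment groups hold different rats and share no label that pairs them. In genes with a mean under 10 reads 0 were called, and the part of depth in this was not tested.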

Other observations

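Genes called in the main comparison were concentrated at medium and high levels. Of 3396 genes with a mean between 200 and 1000 recovered reads, 45 rose and 3 fell. Of 1715 genes in the next higher class, 59 rose and 4 fell. Of 541 genes in the highest class, 10 rose and 1 fell. In the lower classes 7 of 2745, 1 of 2268 and 0 of 3463 genes rose, and 2, 2 and 0 fell. Over all 14128 genes 0.864% rose and 0.0849% fell. The median difference of all genes ran from -1.23 in genes with a mean under 10 reads to 0.19 in the class of 1715 genes. Against vehicle rat 3 alone these medians were 0 and 0.10.

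No gene passed limma between the TGFBRi groups, where the median of all genes was -0.05, and these values are descriptions. The list of the integrated stress response, which halts general translation and induces amino acid genes, had a median of 0.51 against vehicle (0.11 against vehicle rat 3 alone) and of 1.26 between tumor-free and tumor-bearing TGFBRi rats, with 0 of 16 called by limma in either comparison and 1 raised by DESeq2 against vehicle. The amino acid transporter SLC7A5, chosen after its values were seen, had 2194, 2080 and 4085 normalized reads after vehicle, 13590, 10856 and 8199 in tumor-free rats and 2909, 523 and 4974 in tumor-bearing TGFBRi rats. Its tumor-free values lay above all 6 others. The median of 41 G2/M genes was -1.97 between tumor-free and tumor-bearing TGFBRi rats, with 0 called by limma. Against vehicle rat 3 alone the G2/M median was 0.25, with 24 of 41 higher (6540 of 13195 over all genes). AURKA, a mitotic kinase, had 100, 58.3 and 87.3 normalized reads after vehicle, 11.1, 35.3 and 8.01 in tumor-free rats and 41.4, 94.3 and 100 in tumor-bearing TGFBRi rats.

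ZFP157 and CWH43 fell but lay under the minimum of 50 reads for named genes. ZFP157 had 108.1, 25.9 and 30.3 normalized reads after vehicle and 0, 0 and 1.00 in tumor-free rats, against 49.5, 57.4 and 25.3 in tumor-bearing TGFBRi rats. CWH43 had 160, 101.4 and 36.3 after vehicle, 1.01, 7.75 and 0 in tumor-free rats and 24.1, 99.99 and 27.6 in tumor-bearing TGFBRi rats. KLF15, a glucocorticoid-induced transcription factor also under the minimum, had 4.00, 0 and 5.19 against 150, 64.6 and 44.1.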
